A study of Mus musculus with 13 samples.

Results

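Senescent mouse embryonic fibroblasts (MEFs) given Fucoidan-FV at 300 µg/mL were compared with untreated senescent MEFs, across all genes expressed. The comparison took 6 of the 13 RNA-seq libraries of the study, chosen by their labels: 3 senescent cultures without fucoidan and 3 with the higher dose, from mice 4, 5 and 6 on each side. All 6 cultures were wild-type embryonic fibroblasts made senescent with 2 µM etoposide, a topoisomerase inhibitor that breaks DNA, for 24 h and then kept in normal medium for 5 days. Fucoidan-FV, the sulfated sugar polymer that Fucus vesiculosus, a brown seaweed, makes, was on the treated cells for 12 h before total RNA was taken. The remaining libraries were non-senescent MEFs of the same mice and senescent MEFs given 100 µg/mL, and they share the estimate of the spread in the fit, with the lower dose also compared directly at the end. Each mouse contributed 1 culture to each side, so an error below rests on 3 cultures a side and the spread within all 4 groups, and includes technical differences between libraries. The untreated libraries held 25605555 to 31278750 counts and the treated ones 23335289 to 26868420.

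Fucoidans are negatively charged like heparin and can bind heparin-binding growth factors and adhesion proteins. Growth factor receptors and integrins signal through the kinase ERK, which switches on immediate early transcription factors such as the EGR and FOS families and its own inhibitors, the DUSP phosphatases. Serum response factor (SRF) binds a DNA element called the CArG box and drives both immediate early genes and the contractile genes of the actin cytoskeleton. Senescent fibroblasts stop dividing, enlarge, spread with thick actin bundles and secrete proteases, protease inhibitors, cytokines and growth factors, the senescence-associated secretory phenotype (SASP).

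At 300 µg/mL, the genes that fell included ERK-induced and immediate early genes, genes of actin-binding and S100 proteins and of protease inhibitors, while the genes that rose included matrix proteins, Wnt agonists, growth factors and membrane receptors. A gene was called changed at an adjusted p (edgeR quasi-likelihood test, Benjamini-Hochberg over 15034 genes tested) under 0.05 with a log2 fold change above 1 or below -1. By this rule 246 genes (1.64% of those tested) changed, 113 higher (0.752%) and 133 lower (0.885%). Each called gene moved in the same direction in 3 of 3 mice, and the 3 treated values lay outside the range of the 3 untreated ones, as they did for 2947 (19.6%) of all genes tested. Over all genes the median log2 fold change was 0.00. The rises were larger than the falls: the median log2 fold change was 2.05 among genes that rose, 62 of which passed 4-fold, and -1.49 among genes that fell, 39 of which passed 4-fold. Nearly all were protein-coding, 111 of 113 and 128 of 133, as were 89.4% of all genes tested. In TPM, RSEM's length-corrected share of all transcripts, the fallen genes together went from 48721 to 23832 and the risen genes from 2600 to 10803, so the genes that fell were the more abundant ones.

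**Figure D1:**
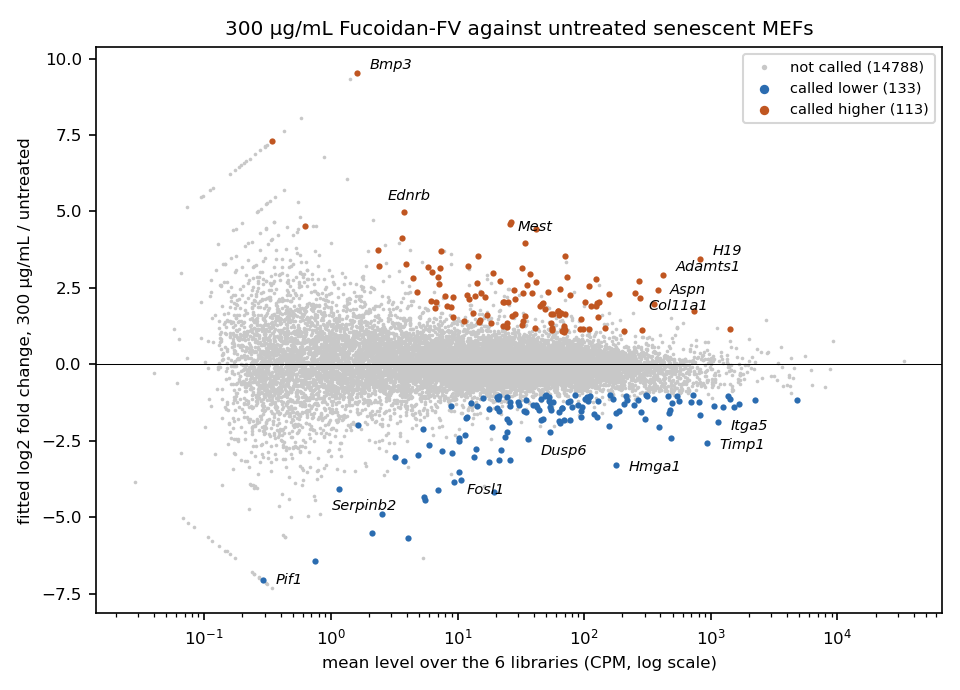
Log2 fold change at 300 µg/mL against untreated senescent MEFs (y) by the mean level of each gene over the 6 libraries in CPM (x, log scale). Each point is 1 of 15034 genes tested, with the 133 called lower in blue and the 113 called higher in orange; of the abundant called genes Timp1 and Itga5 lie below 0 and H19 above it.

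The called genes differed in length, and the trend with length was smaller without 1 library. The genes that rose had a median length of 3168 bases and those that fell 1883, against 2198 over all genes tested. The median log2 fold change went from -0.36 in the shortest of 4 length classes of genes to 0.26 in the longest, and without the untreated library of mouse 6 from -0.02 to 0.13. In that library the shortest class lay 0.69 above the mean of all libraries on the log2 scale and the longest 0.60 below. A fit with offsets for the number of transcripts and for length, which sets these medians close to 0, called 341 genes (2.27%), 173 of them higher, and 202 of the 246 genes were among them. Below, a call that is lost with these offsets is marked as such. A further 2067 tested genes with 1 listed transcript lay low in the untreated library of mouse 5 and the treated library of mouse 4, by 0.78 and 0.93, and only 8 of them were called.

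**Figure D2:**
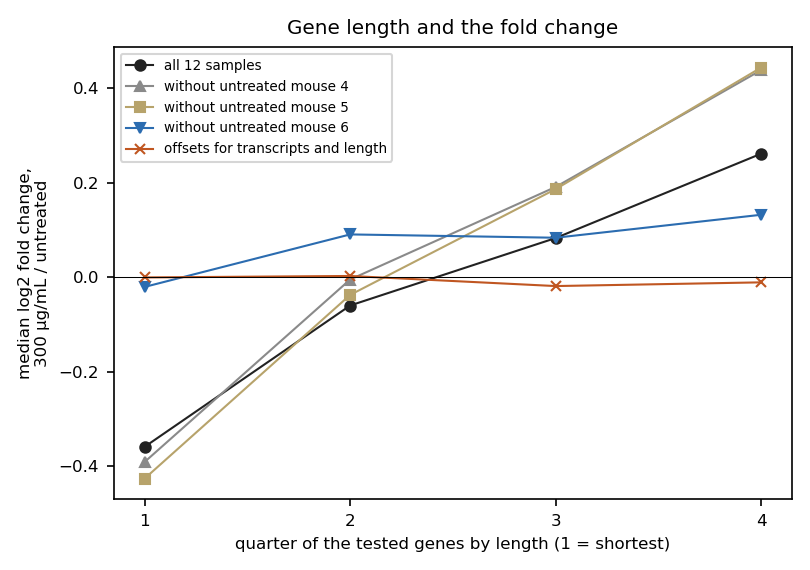
Median log2 fold change at 300 µg/mL (y) in 4 equal classes of the tested genes by length (x, 1 is the shortest). The line over all samples climbs from -0.36 to 0.26, that without untreated mouse 6 from -0.02 to 0.13, and that with offsets stays close to 0, while leaving out untreated mouse 4 or 5 widens the range (from -0.39 and -0.43 to 0.44).

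Leaving out 1 of the 6 libraries at a time left between 46 genes called, without treated mouse 6, and 220, without untreated mouse 4; without treated mice 4 and 5 the counts were 159 and 120, and without untreated mice 5 and 6 they were 180 and 147. In all 6 of these fits 40 of the 246 genes kept their call, 17 higher and 23 lower. Also, in 31 called genes over 20% of the exon length overlaps a gene of the other strand. How the counting treated strand is not given in the sources used here, so their reads cannot be told apart from those of the partner. Among called genes named below this holds for Tnfrsf12a (100%), Fosl1 (69.1%), Tagln (66.7%), Mest (47.7%), Ppif (37.2%), Cnn1 (35.1%), Phlda1 (33.0%), Ednra (29.6%), Cdkn1c (29.0%), Ankrd1 (24.3%), Chst15 (24.1%), Dusp6 (23.0%), Dusp5 (22.4%), Timp3 (21.3%) and Abi3bp (20.2%), and of the others checked for Rfc5 (41.4%), Aurka (38.6%) and Cxcl5 (27.6%). In bulk RNA, fewer cells of a type and less RNA per cell cannot be told apart.

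Genes that ERK induces were among those that fell. Of 22 tested ERK targets 6 fell and none rose, with a median log2 fold change of -0.38. Over all genes tested 0.885% fell and 0.752% rose, the shares to set beside the counts in this and the later gene lists. The lists were chosen with earlier results of these data known. Dusp6 (dual specificity phosphatase 6, chr10:99086564-99103361), which dephosphorylates ERK in the cytoplasm, measured 54.7, 64.1 and 62.2 CPM (counts scaled to the library total) in untreated mice 4, 5 and 6 and 11.4, 9.78 and 12.3 in the treated ones (log2 fold change -2.43 ± 0.24, the error being its SE, adjusted p = 0.000865). Its nuclear relative Dusp5 was at 11.1, 6.68 and 39.0 CPM untreated and 1.12, 2.42 and 1.33 treated (log2 fold change -3.54 ± 0.66, adjusted p = 0.0155). Untreated mouse 6 was far above the other untreated cultures in Dusp5, whereas for Dusp6 the 3 untreated cultures lay close together. Etv4, an ETS-family transcription factor downstream of FGF and ERK signaling (chr11:101660568-101676197), stood at 33.3, 38.8 and 43.4 CPM without fucoidan and 6.90, 4.77 and 4.89 with it (log2 fold change -2.80 ± 0.29, adjusted p = 0.000865). Phlda1, a growth factor-induced gene, went from 38.2, 22.1 and 59.6 CPM to 7.06, 8.86 and 7.30 (log2 fold change -2.37 ± 0.39, adjusted p = 0.0101). Other feedback inhibitors were not called: Spry2 had a log2 fold change of -0.08 (adjusted p = 0.979), Spry4 of -0.37 (0.878) and Dusp4 of -1.77 (0.253). Dusp6 and Etv4 kept their call whichever 1 of the 6 libraries was left out. Leaving out 1 library ended the call of Dusp5 without treated mouse 4 or 6 or untreated mouse 6 (adjusted p up to 0.11), and Phlda1 without treated mouse 6 (adjusted p up to 0.066).

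Among AP-1 and other immediate early genes, 5 of 26 fell and none rose, with a median of -0.76. With 1 library left out, between 1 (without untreated mouse 5) and 5 (without treated mouse 4) of them fell. The median then lay between -0.95 (without untreated mouse 5) and -0.39 (without untreated mouse 6, where 2 fell). Fosl1 (FRA-1, chr19:5497575-5505974), the AP-1 subunit most dependent on sustained ERK activity, measured 16.4, 13.9 and 22.4 CPM untreated and 0.892, 1.53 and 1.24 treated (log2 fold change -3.84 ± 0.58, adjusted p = 0.00635), with the highest treated culture far under the lowest untreated one. The zinc finger factor Egr2 fell from 25.1, 32.8 and 51.4 CPM to 0.0388, 1.42 and 4.604 (log2 fold change -4.18 ± 0.83, adjusted p = 0.0243), and treated mouse 4 was nearly without reads. Egr3 went from 4.73, 5.99 and 4.04 CPM to 0, 0 and 0.498 (log2 fold change -4.90 ± 1.14, adjusted p = 0.045). More abundant genes fell less: the proliferation factor gene Myc, from 57.1, 68.7 and 75.7 CPM to 37.9, 29.7 and 31.8 (log2 fold change -1.02 ± 0.20, adjusted p = 0.0243), and the phosphatase gene Dusp1, from 193, 269.9 and 230.2 to 112, 112 and 91.9 (log2 fold change -1.14 ± 0.19, adjusted p = 0.0101). The classical members were not called. Fos had a log2 fold change of 0.59 (adjusted p = 0.81), Jun of -0.95 (0.568), Junb of -1.08 (0.514) and Egr1 of -2.01 (0.3), with groups that overlapped for Fos, Jun and Junb. Jun read 36.4, 11.8 and 47.0 CPM in the untreated and 5.62, 24.8 and 18.9 in the treated cultures, so it was lowest in untreated mouse 5 and treated mouse 4, the 2 libraries in which genes with 1 listed transcript lay low. Leaving out any 1 of the 6 libraries did not end the call of Fosl1. In fits with 1 library left out the call was lost for Egr2 without treated mouse 5 or untreated mouse 5 or 6 (adjusted p up to 0.1), Egr3 except without treated mouse 6 (adjusted p up to 0.13), and Myc except without treated mouse 4 or untreated mouse 4 (adjusted p up to 0.14). Fits without 1 library lost the call of Dusp1 without treated mouse 6 or untreated mouse 5 (adjusted p up to 0.073).

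The promoters of these genes are shown because 6 of the 133 fallen genes (4.51%) held a CArG box in the 250 bases before the start of their canonical transcript (GENCODE), which can lie inside the gene's outer bounds, as in Egr2 and Serpinb2, against 2 of 113 risen genes (1.77%) and 1.23% of the 14996 promoters of tested genes. Among the 6 were Dusp5, Egr2, Tagln, Khdrbs3 and Ppif. The AP-1 site TGANTCA was in 4 promoters of fallen genes (3.01%), those of Plaur, Serpinb2, Prdx1 and Gsto1, in 8 of risen genes (7.08%) and in 4.83% of all. Both strands were searched, and a match describes the letters only. The sequences run 5′ to 3′ on the gene's own strand in GRCm39, with the element in capitals. The Dusp5 promoter (chr19:53517282-53517531) holds a pair of adjoining CArG boxes, and those of Egr2 (chr10:67373442-67373691) and Tagln (chr9:45847405-45847654, minus strand) hold 1 each. Plaur (chr7:24161625-24161874) and Serpinb2 (chr1:107438903-107439152) each hold 1 AP-1 site. They are printed as examples only, since this site was less common in fallen genes than in all promoters.
Dusp5: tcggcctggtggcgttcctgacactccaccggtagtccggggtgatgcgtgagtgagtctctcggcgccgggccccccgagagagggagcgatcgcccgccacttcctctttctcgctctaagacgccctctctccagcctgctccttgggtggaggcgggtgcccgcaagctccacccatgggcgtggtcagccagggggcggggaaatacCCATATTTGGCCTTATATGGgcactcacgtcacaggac
Egr2: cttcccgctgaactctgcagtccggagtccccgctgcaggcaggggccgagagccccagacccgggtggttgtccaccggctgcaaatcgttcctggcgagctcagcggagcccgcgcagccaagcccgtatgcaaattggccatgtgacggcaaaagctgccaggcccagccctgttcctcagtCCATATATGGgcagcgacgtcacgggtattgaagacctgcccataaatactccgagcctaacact
Tagln: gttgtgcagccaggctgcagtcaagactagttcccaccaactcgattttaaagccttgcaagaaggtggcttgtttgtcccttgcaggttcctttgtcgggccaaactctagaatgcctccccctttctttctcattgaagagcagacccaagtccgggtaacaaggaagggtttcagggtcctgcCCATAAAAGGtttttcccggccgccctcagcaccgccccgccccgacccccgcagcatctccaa
Plaur: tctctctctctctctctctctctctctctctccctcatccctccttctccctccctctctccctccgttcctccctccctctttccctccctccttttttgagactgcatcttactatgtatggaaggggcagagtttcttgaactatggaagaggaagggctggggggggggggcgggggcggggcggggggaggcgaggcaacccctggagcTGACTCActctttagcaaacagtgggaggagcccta
Serpinb2: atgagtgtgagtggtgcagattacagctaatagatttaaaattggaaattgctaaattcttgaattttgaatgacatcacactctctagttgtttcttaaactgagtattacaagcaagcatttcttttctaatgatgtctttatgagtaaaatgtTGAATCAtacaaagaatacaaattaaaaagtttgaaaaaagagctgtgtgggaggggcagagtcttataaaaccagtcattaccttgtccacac
The boxes of Dusp5 began 38 and 28 bases before the start, that of Tagln 64 and that of Egr2 65, and the AP-1 site of Plaur 36 and of Serpinb2 94. The GGAATG element bound by TEAD factors was in 23 of 113 promoters of risen genes (20.4%), 16 of 133 of fallen genes and 11.8% of all, and the median GC content was 54.8%, 56.4% and 56.4%.

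Growth factor ligands went in both directions. Hbegf, a heparin-binding ligand of the EGF receptor (chr18:36637980-36649677), measured 91.9, 63.1 and 111 CPM untreated and 17.1, 27.6 and 12.7 treated (log2 fold change -2.21 ± 0.44, adjusted p = 0.0237), and it was the single called gene among 14 of the EGF family, whose median was 0.56. Ereg, a second ligand of that receptor, was at 17.7, 7.11 and 16.04 CPM untreated and 0.892, 3.66 and 3.32 treated, without reaching the threshold (log2 fold change -2.38 ± 0.70, adjusted p = 0.106), but was called with the offsets (adjusted p = 0.00239). Pgf, placental growth factor, another heparin-binding protein, fell from 19.97, 28.5 and 42.6 to 8.99, 7.26 and 5.52 CPM (log2 fold change -2.06 ± 0.34, adjusted p = 0.00991). Csf1, which recruits and maintains macrophages, was abundant and fell from 1696, 2103 and 1577 to 857, 628 and 557 CPM (log2 fold change -1.40 ± 0.19, adjusted p = 0.00418). In the other direction, Igf1, insulin-like growth factor 1, was at 5.43, 7.80 and 3.67 CPM untreated and 25.5, 34.9 and 52.2 treated (log2 fold change 2.74 ± 0.46, adjusted p = 0.0102). Angpt1, the TIE2 ligand that stabilizes vessels, rose from 7.03, 2.97 and 2.31 to 11.7, 24.4 and 22.9 CPM (log2 fold change 2.25 ± 0.50, adjusted p = 0.0361), and Fgf18 from 3.29, 2.07 and 1.73 to 8.65, 9.25 and 12.3 (log2 fold change 2.08 ± 0.49, adjusted p = 0.0488). Of 17 tested IGF genes 2 rose, with a median log2 fold change of 0.85 (0.22 with the offsets), the other being the insulin receptor substrate Irs1 (log2 fold change 1.17 ± 0.25, adjusted p = 0.0295). Of 15 HGF and FGF genes Fgf18 alone was called (median 0.28), and of 17 VEGF and angiopoietin genes Pgf and Angpt1 (median -0.03). Igf1r, the IGF1 receptor gene, had a log2 fold change of 0.23 (adjusted p = 0.819), Hgf of 2.07 (0.0944) and Vegfa of -0.12 (0.879). The call of Csf1 held in all 6 fits with 1 library left out. The call was not kept with 1 library left out for Hbegf except without treated mouse 5 (adjusted p up to 0.14), Pgf and Igf1 without treated mouse 6 (adjusted p up to 0.066), and Angpt1 except without treated mouse 4 or untreated mouse 4 (adjusted p up to 0.16). Not called with 1 library left out were Fgf18 in each of the 6 fits (adjusted p up to 0.21), and Irs1 except without untreated mouse 4 or 5 (adjusted p up to 0.15). With the offsets neither Fgf18 (adjusted p = 0.0737) nor Irs1 (adjusted p = 0.493) was called. Blocking by mouse put the adjusted p above the limit for Fgf18 (0.0765) and Irs1 (0.0555).

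**Figure D3:**
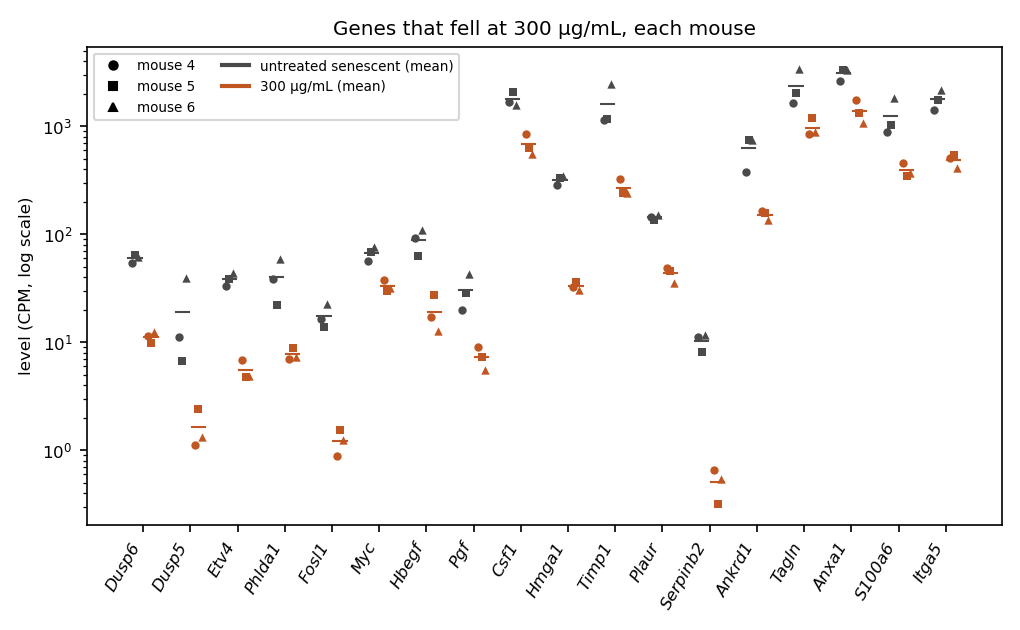
Level of 18 genes that fell, in CPM on a log scale (y), for each mouse in untreated senescent MEFs (grey) and at 300 µg/mL (orange), with lines at the group means. In every gene shown the 3 treated values lie below the 3 untreated ones, with the widest gaps in Fosl1 and Serpinb2.

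Genes of the actin cytoskeleton were a second group among the falls. Of 39 tested actin and SRF contractile genes 7 fell and none rose, 35 had a log2 fold change below 0, and the median was -0.62. Tagln (SM22, chr9:45840909-45847404), an actin cross-linker of smooth muscle and myofibroblasts, was at 1657, 2037 and 3423 CPM in untreated and 855, 1186 and 883 in treated cultures (log2 fold change -1.28 ± 0.28, adjusted p = 0.0328). Actg2, smooth muscle gamma actin, was at 1209.5, 2242 and 3118 CPM untreated and 810.3, 911 and 766 treated (log2 fold change -1.40 ± 0.30, adjusted p = 0.0297). Tagln2 fell further, from 179, 187 and 386 to 68.4, 64.5 and 51.1 CPM (log2 fold change -2.03 ± 0.28, adjusted p = 0.00379). In all 3 genes untreated mouse 6 was the highest culture, and it was the lowest or middle one after treatment. The remaining falls were the calponin gene Cnn1 (log2 fold change -1.22 ± 0.25, adjusted p = 0.0269), beta tropomyosin Tpm2 (log2 fold change -1.04 ± 0.22, adjusted p = 0.0288), the LIM protein gene Csrp1 (log2 fold change -1.13 ± 0.20, adjusted p = 0.014) and the filament-capping Capg (log2 fold change -1.54 ± 0.25, adjusted p = 0.0101). Smooth muscle actin Acta2 had a log2 fold change of -0.72 (adjusted p = 0.106), beta actin Actb of -0.71 (0.0576) and Srf of -0.82 (0.277). Without untreated mouse 6, the library in which short genes lay high, 2 of the list fell, and with the offsets 3 did, Actg2, Tagln2 and Capg. No single library decided the call of Tagln2. Removing 1 library ended the call of Tagln, Actg2, Cnn1 and Tpm2 except without untreated mouse 4 (adjusted p up to 0.19), Csrp1 without treated mouse 5 or 6 or untreated mouse 6 (adjusted p up to 0.1), and Capg without treated mouse 5 or 6 (adjusted p up to 0.067). The offsets ended the call of Tagln (log2 fold change -0.96), Cnn1 (log2 fold change -0.89), Tpm2 (log2 fold change -0.81) and Csrp1 (adjusted p = 0.105). A fit that paired cultures by mouse did not call Tagln (adjusted p = 0.0544) or Tpm2 (adjusted p = 0.0555).

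Ankrd1 (ankyrin repeat domain 1, chr19:36089352-36097506), a mechanically induced gene used as a readout of YAP and TEAD, was the single called gene among 35 of that pathway. Its levels were 381, 742 and 753 CPM untreated and 163, 157 and 136 treated (log2 fold change -2.04 ± 0.28, adjusted p = 0.00379). The better known YAP targets were not called, Ccn1 (log2 fold change -0.56, adjusted p = 0.756) and Ccn2 (-0.45, 0.257), and the list's median was -0.05. Ankrd1 kept its call whichever 1 of the 6 libraries was left out.

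Integrins, which link matrix to the cytoskeleton, changed in both directions. Itga5 (chr15:103252713-103275270), whose product pairs with beta 1 integrin as the fibronectin receptor, fell from 1429, 1765 and 2164 to 506, 539 and 408 CPM (log2 fold change -1.88 ± 0.21, adjusted p = 0.000955), with a wide gap between the groups. The collagen receptor subunit Itga11 rose from 435, 356 and 229 to 1141, 895 and 1372 CPM (log2 fold change 1.74 ± 0.28, adjusted p = 0.00931). Itga1, also a collagen receptor subunit, rose (log2 fold change 1.34 ± 0.27, adjusted p = 0.0254), as did the laminin receptor subunit Itga7 (log2 fold change 1.15 ± 0.24, adjusted p = 0.0269). Itgb1, the common partner of these 4, had a log2 fold change of -0.52 (adjusted p = 0.286), and Itgav of -0.02 (0.991). The caveolin gene Cav1 fell from 1651, 1838 and 1044 to 871, 564 and 331 CPM (log2 fold change -1.36 ± 0.32, adjusted p = 0.0488), and so did Cd44, the hyaluronan receptor, from 1201, 1026 and 709 to 576, 389.8 and 295 (log2 fold change -1.22 ± 0.26, adjusted p = 0.0286). Altogether 3 of 25 integrin and focal adhesion genes rose and 2 fell, with a median of -0.02. Of 30 genes for heparan sulfate proteoglycans, their modifying enzymes and hyaluronan, Cd44 fell and the glypican gene Gpc3 rose, from 7.35, 1.51 and 5.67 to 12.8, 20.8 and 34.9 CPM (log2 fold change 2.23 ± 0.51, adjusted p = 0.0397), with a median of 0.25. Leaving out any 1 of the 6 libraries did not end the call of Itga5. Leaving out 1 library ended the call of Itga11 without treated mouse 6 (adjusted p up to 0.057), Itga1 without treated mouse 5 or 6 or untreated mouse 4 (adjusted p up to 0.1), and Itga7 without treated mouse 5 or 6 (adjusted p up to 0.16). In fits with 1 library left out the call was lost for Cav1 except without treated mouse 4 (adjusted p up to 0.2), Cd44 except without treated mouse 4 or untreated mouse 6 (adjusted p up to 0.16), and Gpc3 except without treated mouse 4 or untreated mouse 4 (adjusted p up to 0.2). The offsets ended the call of Itga7 (adjusted p = 0.193). A block for the mouse raised the adjusted p of Gpc3 (0.065) above the limit.

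Annexins and S100 proteins, calcium-dependent partners at the membrane, fell in 5 of 18 tested genes, and 17 of the 18 had a log2 fold change below 0, with a median of -0.70. Anxa1 (chr19:20350792-20368374) was at 2632, 3322 and 3341 CPM untreated and 1773, 1328 and 1081 treated (log2 fold change -1.15 ± 0.21, adjusted p = 0.014). S100a6 was at 891, 1029.7 and 1851 CPM untreated and 462, 347 and 372 treated (log2 fold change -1.67 ± 0.26, adjusted p = 0.00863). Per length S100a6 was the most abundant of the 246 called genes in untreated cultures, with a mean of 6264 TPM untreated and 2586 treated. Anxa3 (log2 fold change -1.15 ± 0.23, adjusted p = 0.0234), Anxa5 (log2 fold change -1.05 ± 0.23, adjusted p = 0.0352) and the scarce S100a3 (log2 fold change -5.52 ± 1.19, adjusted p = 0.0326) made up the rest. These transcripts are short, and with the offsets 3 of the 18 fell and the median was -0.54. Without untreated mouse 6, the library in which short genes lay high, 2 fell and the median was -0.34. Without treated mouse 6 none of the 18 was called. Fits without 1 library lost the call of Anxa1 without treated mouse 5 or 6 (adjusted p up to 0.1), S100a6 without treated mouse 6 (adjusted p up to 0.06), and Anxa3 except without treated mouse 5 or untreated mouse 4 (adjusted p up to 0.14). The call was not kept with 1 library left out for Anxa5 in each of the 6 fits (adjusted p up to 0.19), and S100a3 except without treated mouse 5 (adjusted p up to 0.15). With the offsets neither Anxa3 (adjusted p = 0.0689) nor Anxa5 (log2 fold change -0.67) was called. Blocking by mouse put the adjusted p above the limit for Anxa5 (0.0708).

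The proteases that cut matrix and the proteins that restrain them moved separately. Plaur (chr7:24161875-24175394), the cell-surface receptor of urokinase, was at 144, 137 and 152 CPM untreated and 49.2, 45.9 and 35.2 treated (log2 fold change -1.73 ± 0.19, adjusted p = 0.000955). Serpinb2 (chr1:107428593-107463208), the plasminogen activator inhibitor PAI-2, was at 11.1, 8.10 and 11.8 CPM untreated and 0.659, 0.320 and 0.539 treated (log2 fold change -4.35 ± 0.46, adjusted p = 0.000865). The urokinase gene Plau had a log2 fold change of -0.49 (adjusted p = 0.252) and the activator Plat of 0.36 (0.678), so neither was called. Serpinb1a, an inhibitor of neutrophil proteases, went the other way, from 2.49, 1.68 and 1.97 to 32.8, 16.5 and 101 CPM (log2 fold change 4.6 ± 0.80, adjusted p = 0.0113), with treated mouse 6 the highest. In all, 3 of 13 plasminogen activator and serpin genes fell and 1 rose, with a median of -0.27. Of the metalloproteinase inhibitors, Timp1 (chrX:20736316-20740976) fell from 1139.9, 1179 and 2479 to 325, 244 and 242 CPM (log2 fold change -2.57 ± 0.28, adjusted p = 0.000955) and Timp3 from 1453, 1036 and 927 to 464, 511 and 469 (log2 fold change -1.24 ± 0.20, adjusted p = 0.00874), while Timp2 had a log2 fold change of -0.09 (adjusted p = 0.891). For Timp1, a short transcript, the fold change with the offsets was -2.01 (adjusted p = 0.00803). The call of Plaur, Serpinb2 and Timp1 held in all 6 fits with 1 library left out. Not called with 1 library left out were Serpinb1a without treated mouse 6 (adjusted p up to 0.059), and Timp3 without treated mouse 6 or untreated mouse 4 (adjusted p up to 0.06).

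Among proteases, Adamts1 (chr16:85590579-85600009), which cleaves aggrecan and versican, was at 135, 125 and 33.1 CPM untreated and 809, 654 and 750.3 treated (log2 fold change 2.91 ± 0.42, adjusted p = 0.00501). Even the highest untreated culture was far under the lowest treated one. It was the single called gene among 15 of the ADAMTS family, 14 of which had a log2 fold change above 0, and with the TIMPs the 18 genes had a median of 0.66. Of 15 matrix metalloproteinases 2 rose and none fell, with a median of 0.35, the collagenase gene Mmp13, from 0.895, 0.388 and 0.883 to 1.94, 5.16 and 14.2 CPM (log2 fold change 3.28 ± 0.70, adjusted p = 0.0297), and the membrane-bound Mmp16, from 11.1, 17.98 and 11.8 to 39.9, 30.7 and 57.7 (log2 fold change 1.65 ± 0.33, adjusted p = 0.0245). Mmp2, the most abundant gelatinase gene here, had a log2 fold change of 0.06 (adjusted p = 0.942). No single library decided the call of Adamts1. Removing 1 library ended the call of Mmp13 except without treated mouse 4 (adjusted p up to 0.19), and Mmp16 without treated mouse 4 or 6 (adjusted p up to 0.15). A fit that paired cultures by mouse did not call Mmp13 (adjusted p = 0.0525).

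The matrix genes that rose included proteoglycans, elastic fiber proteins and particular collagens. Aspn (asporin, chr13:49697609-49721057), a small leucine-rich proteoglycan that binds collagen and TGF-beta, was at 134, 165 and 59.8 CPM untreated and 751, 546 and 629.6 treated (log2 fold change 2.43 ± 0.38, adjusted p = 0.00777). Podn was at 11.8, 11.1 and 15.4 CPM untreated and 43.5, 46.3 and 103 treated (log2 fold change 2.34 ± 0.54, adjusted p = 0.0439). All 11 tested members of this family had a log2 fold change above 0 with a median of 2.22, but only these 2 were called. Values of the others included decorin (Dcn, log2 fold change 2.22 ± 0.60, adjusted p = 0.0822), osteoglycin (Ogn, log2 fold change 2.41 ± 0.74, adjusted p = 0.123) and biglycan (Bgn, log2 fold change 0.22 ± 0.21, adjusted p = 0.704). Of 27 elastic fiber and matricellular genes 4 rose and none fell, with a median of 0.72. Elastin, Eln (chr5:134731445-134776322), rose from 36.6, 49.3 and 71.9 to 177, 183 and 418 CPM (log2 fold change 2.30 ± 0.46, adjusted p = 0.0243) and fibrillin 2, Fbn2, from 16.5, 8.28 and 8.63 to 49.9, 72.2 and 94.4 (log2 fold change 2.69 ± 0.49, adjusted p = 0.0146). Versican, Vcan, rose from 144, 219.7 and 70.4 to 566, 383 and 745 CPM (log2 fold change 1.96 ± 0.46, adjusted p = 0.0455), and Ccn3 from 8.40, 3.02 and 8.19 to 15.97, 52.9 and 104 (log2 fold change 3.14 ± 0.68, adjusted p = 0.0335). In Eln and Ccn3 treated mouse 6 was well above the other treated cultures, and without it none of the 27 was called. Aspn kept its call whichever 1 of the 6 libraries was left out. Leaving out 1 library ended the call of Podn in each of the 6 fits (adjusted p up to 0.21), Eln without treated mouse 6 or untreated mouse 4 or 5 (adjusted p up to 0.13), and Fbn2 without treated mouse 6 or untreated mouse 5 or 6 (adjusted p up to 0.073). In fits with 1 library left out the call was lost for Vcan except without untreated mouse 5 (adjusted p up to 0.2), and Ccn3 except without treated mouse 4 (adjusted p up to 0.19). A block for the mouse raised the adjusted p of Podn (0.0735), Vcan (0.0943) and Ccn3 (0.0783) above the limit.

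**Figure D4:**
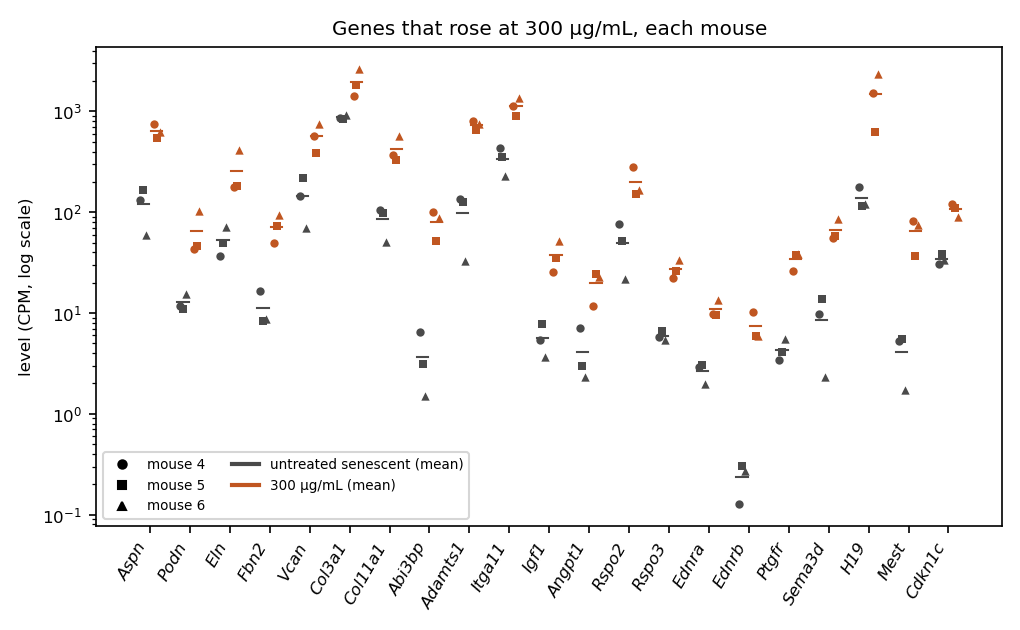
Level of 21 genes that rose, in CPM on a log scale (y), for each mouse in untreated senescent MEFs (grey) and at 300 µg/mL (orange), with lines at the group means. The treated values lie above the untreated ones in every gene, and untreated mouse 6 is the lowest untreated culture in Aspn, Vcan, Adamts1 and Mest.

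Collagen genes divided, 5 rising and 3 falling of 40 tested genes for collagens and their processing enzymes, with a median of 0.12. Col11a1 (chr3:113824134-114014367), a minor fibrillar collagen that sets fibril diameter, was at 105, 98.5 and 50.9 CPM untreated and 373, 329 and 568 treated (log2 fold change 2.32 ± 0.36, adjusted p = 0.00779). Col3a1, a main fibrillar collagen, went from 861, 838 and 919 to 1416, 1820.2 and 2651 CPM (log2 fold change 1.17 ± 0.28, adjusted p = 0.0489). Col14a1 (log2 fold change 2.48 ± 0.53, adjusted p = 0.031), Col8a2 (log2 fold change 3.70 ± 0.78, adjusted p = 0.0295) and Col27a1 (log2 fold change 1.36 ± 0.28, adjusted p = 0.0263) also rose. In the other direction Col15a1, the collagen of basement membrane zones, fell from 30.4, 25.7 and 17.4 to 4.54, 3.95 and 2.16 CPM (log2 fold change -2.79 ± 0.40, adjusted p = 0.00463), along with the anchoring fibril collagen Col7a1 (log2 fold change -1.63 ± 0.34, adjusted p = 0.0264) and Col5a3 (log2 fold change -1.25 ± 0.22, adjusted p = 0.014). The type I chains were not called, Col1a1 with a log2 fold change of -0.01 (adjusted p = 0.998) and Col1a2 of 0.38 (0.34). Fn1, fibronectin, the ligand of the Itga5 receptor, was at 34821, 42455 and 18651 CPM untreated and 38321, 32949 and 32248 treated (log2 fold change 0.11, adjusted p = 0.914). Abi3bp, a matrix protein gene that was low without fucoidan, stood at 6.46, 3.15 and 1.495 CPM and then at 99.7, 51.4 and 87.5 (log2 fold change 4.42 ± 0.79, adjusted p = 0.013). Leaving out any 1 of the 6 libraries did not end the call of Col11a1 and Col15a1. Fits without 1 library lost the call of Col3a1 and Col8a2 except without treated mouse 4 (adjusted p up to 0.23), Col14a1 except without treated mouse 5 (adjusted p up to 0.18), and Col27a1 except without untreated mouse 5 or 6 (adjusted p up to 0.084). The call was not kept with 1 library left out for Col7a1 except without untreated mouse 4 (adjusted p up to 0.15), Col5a3 without treated mouse 4, 5 or 6 (adjusted p up to 0.061), and Abi3bp without treated mouse 6 or untreated mouse 5 (adjusted p up to 0.06). With the offsets neither Col27a1 (adjusted p = 0.0778) nor Col14a1 (adjusted p = 0.0699) was called. Blocking by mouse put the adjusted p above the limit for Col3a1 (0.0716) and Col8a2 (0.0716).

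In the Wnt pathway, 2 secreted agonists rose while 2 target genes fell, of 38 tested with a median of 0.46. The R-spondins enhance Wnt signaling by protecting Frizzled receptors from degradation. Rspo3 (chr10:29327285-29411876) was at 5.82, 6.60 and 5.37 CPM untreated and 22.3, 25.9 and 33.4 treated (log2 fold change 2.20 ± 0.31, adjusted p = 0.00463), and Rspo2 at 75.6, 52.1 and 21.9 CPM untreated and 283, 151 and 167 treated (log2 fold change 2.01 ± 0.46, adjusted p = 0.0402). Axin2, a negative regulator that beta-catenin induces, fell from 10.9, 10.3 and 4.76 to 1.40, 0.747 and 1.16 CPM (log2 fold change -2.97 ± 0.67, adjusted p = 0.0383). Lef1, the partner of beta-catenin on DNA, fell from 17.3, 23.6 and 13.9 to 7.52, 5.55 and 3.48 (log2 fold change -1.72 ± 0.38, adjusted p = 0.0358). Of 9 Wnt ligands none was called, among them Wnt5a (log2 fold change 0.31, adjusted p = 0.714). The call of Rspo3 held in all 6 fits with 1 library left out. Not called with 1 library left out were Rspo2 except without untreated mouse 4 (adjusted p up to 0.14), Axin2 except without untreated mouse 6 (adjusted p up to 0.19), and Lef1 except without treated mouse 4 (adjusted p up to 0.19). A fit that paired cultures by mouse did not call Axin2 (adjusted p = 0.0637) or Lef1 (adjusted p = 0.0658).

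Both endothelin receptor genes rose, of 5 genes tested in that system (median 1.16). Ednrb (chr14:104052053-104081900) was close to absent without fucoidan, at 0.128, 0.302 and 0.272 CPM, and at 10.2, 5.90 and 5.97 with it (log2 fold change 4.97 ± 0.57, adjusted p = 0.00109). Ednra was at 2.91, 3.02 and 1.97 CPM untreated and 9.69, 9.60 and 13.4 treated (log2 fold change 2.05 ± 0.37, adjusted p = 0.0147). The ligand gene Edn1 had a log2 fold change of -1.17 (adjusted p = 0.516) and the converting enzyme gene Ece1 of 0.27 (0.834). Ptgfr, the receptor of prostaglandin F2 alpha, rose from 3.45, 4.10 and 5.47 to 25.9, 38.0 and 38.4 CPM (log2 fold change 2.97 ± 0.34, adjusted p = 0.00109), while the enzyme gene Ptgs2 had a log2 fold change of -1.02 (0.433). Ptgfr was the single call among 11 prostaglandin genes, whose median was -0.36. Ntrk3, the neurotrophin 3 receptor, rose from 0.383, 0.345 and 0.442 to 8.76, 5.19 and 6.72 CPM (log2 fold change 4.12 ± 0.71, adjusted p = 0.0111), and Vipr2, a receptor of vasoactive intestinal peptide, from 0.0320, 0.0431 and 0.0680 to 1.16, 0.960 and 1.49 (log2 fold change 4.54 ± 0.90, adjusted p = 0.0289). The class 3 semaphorins, secreted guidance ligands that act through neuropilins and plexins, were represented among the rises by Sema3d, from 9.78, 13.6 and 2.34 to 55.7, 58.0 and 84.8 CPM (log2 fold change 2.95 ± 0.62, adjusted p = 0.0295) and Sema3f from 38.6, 20.6 and 23.8 to 102, 67.0 and 89.1 (log2 fold change 1.64 ± 0.27, adjusted p = 0.0101). These were the 2 calls among 16 semaphorin and receptor genes, with a median of 0.49, and Nrp1, the neuropilin gene, had a log2 fold change of -0.16 (adjusted p = 0.837). No single library decided the call of Ednrb and Ptgfr. Removing 1 library ended the call of Ednra, Ntrk3 and Sema3f without treated mouse 6 (adjusted p up to 0.095), Vipr2 in each of the 6 fits (adjusted p up to 0.14), and Sema3d except without untreated mouse 5 or 6 (adjusted p up to 0.13). A block for the mouse raised the adjusted p of Vipr2 (0.0659) and Sema3d (0.0652) above the limit.

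Bmp3, a BMP family member that antagonizes other BMPs, had no reads in the 3 untreated libraries and 250 in the 3 treated ones together, at 4.34, 2.31 and 3.03 CPM, at least 89.6-fold higher against a floor of 3 reads over the group (adjusted p = 0.00533). It was the single called gene of 26 in the BMP family and ID list, whose median was 0.13. Id1, a classical BMP target, was at 50.5, 47.0 and 93.0 CPM untreated and 18.5, 11.8 and 3.57 treated, without reaching the threshold (log2 fold change -2.49 ± 0.61, adjusted p = 0.0563). Megf6, a secreted EGF-repeat protein gene, rose from 2.52, 1.21 and 2.21 to 27.4, 23.1 and 101 CPM (log2 fold change 4.66 ± 0.79, adjusted p = 0.0103), with treated mouse 6 far above the others. Among the largest falls were scarce genes best known from other tissues: Lce1h, a skin cornified envelope gene, had 131 reads in the untreated libraries and 1 in the treated ones, and Vmn2r79, a vomeronasal receptor gene, read 9.27, 7.76 and 6.97 CPM untreated and 0, 0.320 and 0.124 treated (log2 fold change -5.69 ± 0.97, adjusted p = 0.0103). The predicted gene Gm35940 also fell (log2 fold change -4.43 ± 0.79, adjusted p = 0.013). Among the abundant genes that rose was Pmp22, a myelin and growth arrest gene, at 152, 196 and 192 CPM untreated and 446, 304 and 412 treated (log2 fold change 1.11 ± 0.23, adjusted p = 0.0274). Bmp3 kept its call whichever 1 of the 6 libraries was left out. Leaving out 1 library ended the call of Megf6, Gm35940 and Vmn2r79 without treated mouse 6 (adjusted p up to 0.074), Lce1h in each of the 6 fits (adjusted p up to 0.18), and Pmp22 without treated mouse 4 or 6 (adjusted p up to 0.14). Blocking by mouse put the adjusted p above the limit for Lce1h (0.0904).

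The imprinted genes H19, Mest and Cdkn1c rose. H19 (chr7:142129262-142133957), a maternally expressed long noncoding RNA of embryonic tissue, was at 179.5, 116 and 122 CPM untreated and 1541, 623 and 2353 treated (log2 fold change 3.44 ± 0.56, adjusted p = 0.00966). Mest, a paternally expressed gene of mesoderm, was at 5.24, 5.47 and 1.73 CPM untreated and 82.4, 36.8 and 74.7 treated (log2 fold change 3.96 ± 0.51, adjusted p = 0.00244). Cdkn1c (chr7:143012069-143014806), the CDK inhibitor p57, was at 30.5, 38.3 and 33.7 CPM untreated and 121, 109.4 and 89.5 treated (log2 fold change 1.64 ± 0.20, adjusted p = 0.00175). It was the single called gene among 19 CDK inhibitors, cyclins and kinases, whose median was -0.25. Cdkn1a (p21) had a log2 fold change of 0.01 (adjusted p = 0.994), Cdkn1b (p27) of 0.70 (0.292), Cdkn2a of -0.39 (0.49) and the cyclin gene Ccnd1 of -1.09 (0.129). Leaving out any 1 of the 6 libraries did not end the call of H19, Mest and Cdkn1c.

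Few mitosis and replication genes passed the test, although nearly all had values below 0. Of 37 tested G2/M genes 35 had a log2 fold change below 0, with a median of -0.82, and the spindle factor gene Tpx2 was called, at 27.0, 33.3 and 38.7 CPM untreated and 16.9, 14.4 and 16.2 treated (log2 fold change -1.06 ± 0.22, adjusted p = 0.0282). Of 37 replication genes 34 had one below 0, with a median of -0.58. Rpa1, the single-strand binding protein, fell from 114, 141 and 169 to 70.4, 65.2 and 66.9 CPM (log2 fold change -1.07 ± 0.18, adjusted p = 0.0103), and Dbf4, the activator of the replication kinase CDC7, from 14.9, 21.8 and 17.4 to 6.63, 9.18 and 6.51 (log2 fold change -1.27 ± 0.27, adjusted p = 0.0307). Cdk1 was at 15.8, 8.62 and 19.9 CPM untreated and 7.83, 8.39 and 11.7 treated, with overlapping groups (log2 fold change -0.67, adjusted p = 0.343). None of 69 DNA repair genes was called by edgeR, with a median of -0.01, 3 of them had an unadjusted p under 0.05, and DESeq2 called 1. Of all 15034 genes tested, 2297 had an unadjusted p (edgeR) under 0.05. Sirt6, the deacetylase that the study is about, read 9.01, 10.3 and 13.6 CPM untreated and 9.81, 11.1 and 9.87 treated (log2 fold change -0.10 ± 0.28, adjusted p = 0.921). Of 30 p53 targets the polo-like kinase gene Plk3 fell (log2 fold change -1.15 ± 0.24, adjusted p = 0.0264) and none rose, with a median of 0.19. In fits with 1 library left out the call was lost for Tpx2 except without untreated mouse 4 or 5 (adjusted p up to 0.14), Rpa1 without treated mouse 5 or 6 or untreated mouse 6 (adjusted p up to 0.069), and Dbf4 and Plk3 except without untreated mouse 4 (adjusted p up to 0.19). A fit that paired cultures by mouse did not call Dbf4 (adjusted p = 0.0612).

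Inflammatory signaling genes were mostly below the threshold. Of 33 NF-kB and cytokine genes, Csf1 and the TWEAK receptor gene Tnfrsf12a fell and the interleukin 1 receptor gene Il1r1 rose, with a median of -0.04. Tnfrsf12a was at 338, 296 and 631 CPM untreated and 158, 144 and 129 treated (log2 fold change -1.56 ± 0.25, adjusted p = 0.00967). Il1r1 was at 12.6, 11.6 and 5.47 CPM untreated and 58.1, 22.8 and 40.8 treated (log2 fold change 2.03 ± 0.45, adjusted p = 0.0353). Il6 read 2.59, 1.77 and 5.78 CPM untreated and 3.37, 1.74 and 4.73 treated, with overlapping groups (log2 fold change -0.04, adjusted p = 0.991). None of 12 chemokines was called by edgeR although their median was 1.36, while 3 had an unadjusted p under 0.05 (2297 of all 15034 genes tested) and DESeq2 called 2. That median was 0.19 with 10 counts required in every sample and 0.37 in the fit of only the 2 groups. With 1 library left out it lay between 0.55 and 1.64, and other fits of all samples gave 1.36 to 1.47. Chemokine values included Cxcl12 (247, 335 and 428 CPM untreated and 765, 491 and 1336 treated, log2 fold change 1.36 ± 0.45, adjusted p = 0.151), Cxcl5 (log2 fold change 3.72 ± 1.08, adjusted p = 0.104) and Ccl2 (log2 fold change 0.21 ± 0.35, adjusted p = 0.848). Of 14 complement genes the membrane regulator Cd55 rose, from 11.5, 9.70 and 5.61 to 37.7, 30.7 and 42.7 CPM (log2 fold change 2.05 ± 0.45, adjusted p = 0.0332), and the median was 0.88. Spp1, osteopontin, was at 1420.0, 1288 and 1082 CPM untreated and 755, 472 and 692 treated, under both limits of the call (log2 fold change -0.98 ± 0.27, adjusted p = 0.0849). Fits without 1 library lost the call of Tnfrsf12a without treated mouse 6 (adjusted p up to 0.066), Il1r1 except without treated mouse 5 or untreated mouse 4 (adjusted p up to 0.14), and Cd55 in each of the 6 fits (adjusted p up to 0.16). A block for the mouse raised the adjusted p of Il1r1 (0.0742) and Cd55 (0.0544) above the limit.

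Several pathways had no called member or 1, and these are given by their medians beside the 0.00 of all genes. Polysaccharide receptors, 18 genes of the Toll-like, scavenger and lectin families, had 0.48 as their median log2 fold change, with Tlr4 at 0.55 (adjusted p = 0.666) and the scavenger receptor gene Scarb1 at -0.77 (0.0591). The 26 interferon response genes had a median of -0.16, the 20 TGF-beta and activin genes of -0.04, the 7 PDGF genes of 0.49, the 30 lysosome genes of -0.06 and the 30 genes of the unfolded protein and integrated stress response of -0.02, all without a call. At an unadjusted p under 0.05 (edgeR) there were 4 polysaccharide receptor, 1 interferon, 4 TGF-beta, 5 PDGF, 4 lysosome, 5 stress response, 13 cholesterol and 7 FOXO genes, and DESeq2 called 1, 0, 2, 1, 0, 2, 3 and 2 genes of these lists. Of all 15034 genes tested, 2297 had an unadjusted p under 0.05, and the DESeq2 total is given further below. Tgfbr2 was at 1.06 (adjusted p = 0.0869) and Tgfb1 at -1.38 (0.109). Cholesterol synthesis and uptake genes had a median of 0.64, 28 of 29 above 0. The 23 FOXO factors and targets had a median of 0.59, 21 of them above 0, with Sesn1 at 1.14 (0.16) and Sesn3 at 1.08 (0.0881). Of 19 NRF2 targets and metallothioneins the peroxiredoxin gene Prdx1 fell (log2 fold change -1.03 ± 0.16, adjusted p = 0.00684, list median -0.40), whereas Hmox1 was at -0.61 (adjusted p = 0.239), and of 32 glycolysis and hypoxia genes the stress-induced Ndrg1 rose (log2 fold change 1.63 ± 0.35, adjusted p = 0.0326, list median -0.10). With the offsets the log2 fold change of Prdx1 was -0.66, under the limit, and with the mouse as a block the adjusted p of Ndrg1 was 0.0637. The call was not kept with 1 library left out for Prdx1 without treated mouse 5 or untreated mouse 6 (its log2 fold change then being under 1), and Ndrg1 except without untreated mouse 5 (adjusted p up to 0.19).

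**Figure D5:**
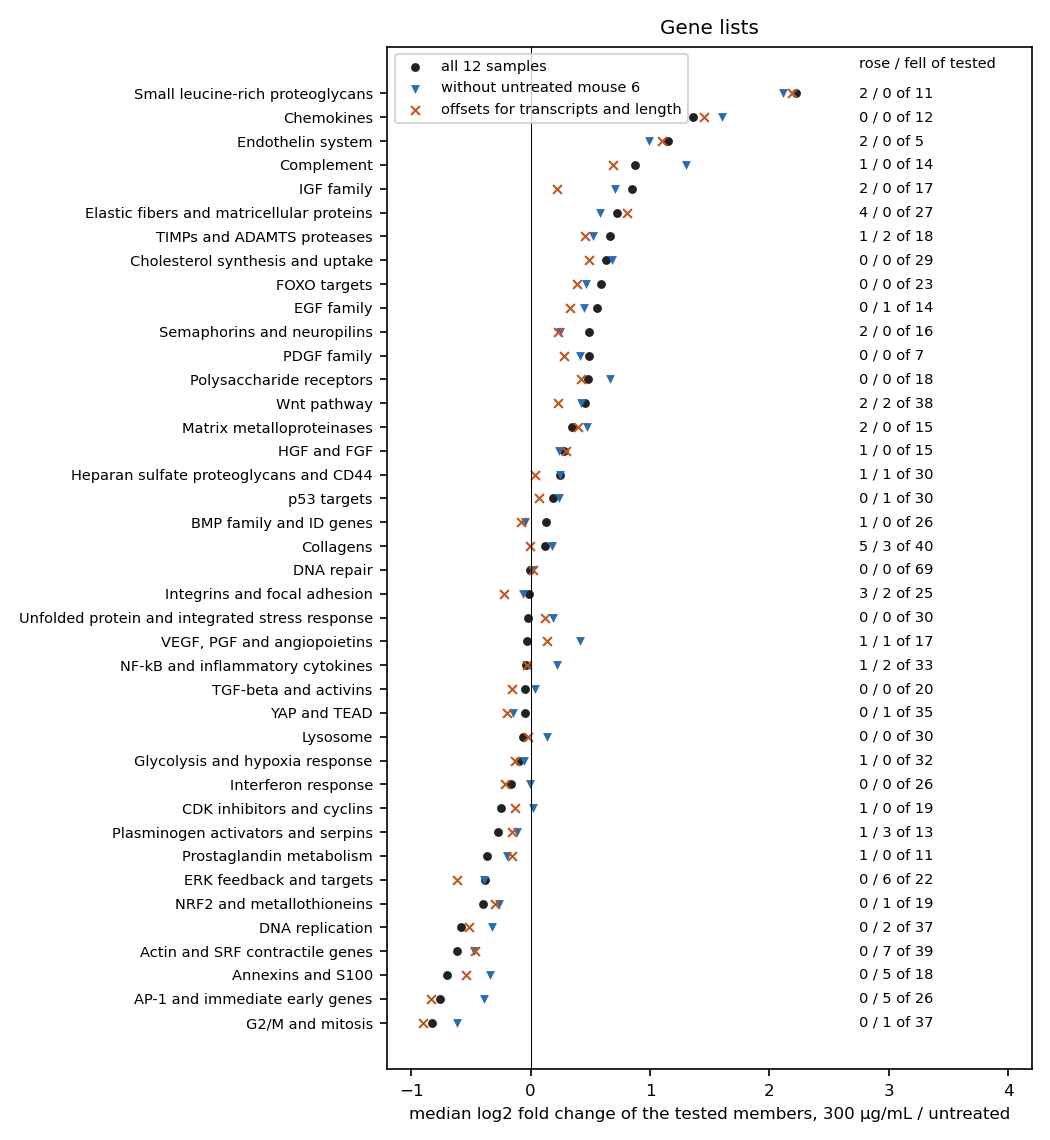
Median log2 fold change of the tested members of 40 gene lists (x) at 300 µg/mL, over all samples (black), without untreated mouse 6 (blue) and with offsets for transcripts and length (orange), with the members that rose, fell and were tested at the right. Small leucine-rich proteoglycans lie highest at 2.22 and G2/M genes lowest at -0.82.

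Of 21 tested genes that the study singled out in its own network and repair results, 8 fell and 1 rose (median -1.03), and of 27 that it marked as SASP, 3 fell and 5 rose (median 0.28). Without treated mouse 6, 1 gene fell and 0 rose in each list, without treated mouse 5 the counts were 3 and 0 in the first and 3 and 2 in the second, and without untreated mouse 6 they were 4 and 0, and 3 and 2. Without untreated mouse 5, 5 fell and 0 rose in the first list and 3 fell and 2 rose in the second, and without untreated mouse 4 the second had 3 of each and the first 8 and 0. DESeq2 called 10 lower and 5 higher in the first and 4 lower and 10 higher in the second, whereas keeping the control libraries separate left 7 lower and 0 higher, and 3 lower and 1 higher. Both lists come from the study's own results, and its figure captions for the network and the SASP plot name the lower dose against untreated senescent cells. Whether the higher dose also entered the choice is not clear from the sources used here. The untreated libraries are shared with that comparison, so the counts of both lists are no independent evidence of a direction. In the first list, Rfc5 read 26.6, 39.4 and 62.9 CPM untreated and 23.6, 15.2 and 20.5 treated (log2 fold change -1.12 ± 0.31, adjusted p = 0.0864) and Ercc1 32.2, 39.5 and 64.8 CPM untreated and 30.4, 18.8 and 17.6 treated (log2 fold change -1.03 ± 0.31, adjusted p = 0.114), neither reaching the threshold, nor did Aurka (log2 fold change -1.08) or Mcm6 (-0.81), while Cxcl15 had a log2 fold change of 2.59 (adjusted p = 0.282). In the second, the members without a call included Igfbp3 (log2 fold change 1.27 ± 0.35, adjusted p = 0.0901), Fgf7 (log2 fold change 0.28 ± 0.28, adjusted p = 0.712), Serpine2 (log2 fold change 0.28 ± 0.19, adjusted p = 0.545) and Ctsb (log2 fold change -0.21 ± 0.15, adjusted p = 0.577). Those described nowhere above had log2 fold changes from -1.66 (Mmp9, adjusted p = 0.329) to 2.38 (Wnt16, 0.0933), with Vgf at -1.39, Igfbp6 at -0.75, Il7 at -0.19, Igfbp2 at -0.12, Pappa at 0.85, Nrg1 at 1.10 and Bmp6 at 1.55.

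The higher dose was also set against the lower one. Tested directly, 300 and 100 µg/mL differed in 1 gene (0.00665% of those tested), the helicase gene Pif1, which had no reads in the 3 libraries at 300 µg/mL, and which was not called in any of the 6 fits that left out 1 library. At an unadjusted p under 0.05 there were 94 of the 15034 genes tested, none of them among the 113 that rose and 3 among the 133 that fell. Set side by side, with the caution that both doses share the untreated libraries, the median log2 fold change of the risen genes was 2.05 at 300 and 2.04 at 100 µg/mL, and that of the fallen ones -1.49 and -1.62. Dusp6 differed between 300 and 100 µg/mL by 0.08 ± 0.23, Timp1 by 0.05 ± 0.27, Aspn by 0.25 ± 0.36, H19 by 0.04 ± 0.51 and Serpinb2 by 1.52 ± 0.48 on the log2 scale (300 minus 100, ± SE). None of these differences was called, which does not show that the doses act alike.

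The 4 groups of the study are set side by side for genes of each kind. Dusp6 averaged 67.5 ± 17.1 CPM (SD) in non-senescent, 60.3 ± 4.97 in untreated senescent, 10.5 ± 1.94 at 100 and 11.2 ± 1.29 at 300 µg/mL. Timp1 averaged 1044 ± 79.2 CPM (SD) in non-senescent, 1599 ± 762 in untreated senescent, 260.5 ± 34.5 at 100 and 270.2 ± 47.2 at 300 µg/mL. H19 averaged 202 ± 35.0 CPM (SD) in non-senescent, 139 ± 35.2 in untreated senescent, 1461 ± 1146 at 100 and 1506 ± 866 at 300 µg/mL. Dusp6 and Timp1 were thus lowest in the treated groups and H19 highest in them, and the means at both doses lay within 1 SD of each other. Aspn averaged 19.02 ± 7.80 CPM (SD) in non-senescent, 119.6 ± 54.1 in untreated senescent, 541 ± 132 at 100 and 642 ± 103 at 300 µg/mL, and Igf1 1.93 ± 1.22 CPM (SD) in non-senescent, 5.63 ± 2.07 in untreated senescent, 37.2 ± 11.6 at 100 and 37.5 ± 13.5 at 300 µg/mL, both lowest in the non-senescent cells. These comparisons share the untreated senescent libraries.

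Markers of fibroblasts were far above those of other cell types in both groups. The summed level of 12 fibroblast markers was 18658 to 22269 TPM in untreated and 22451 to 23578 TPM in treated cultures, with Col3a1 the single one called. Macrophage markers summed to 2.93 to 14.3 and 8.97 to 23.4 TPM. Endothelial markers summed to 12.9 to 22.4 and 14.4 to 20.1 TPM, with Tie1 and Cldn5 at 0 reads in both. The 12 skeletal muscle markers summed to 244 to 315 TPM untreated and 123 to 187 treated. They came almost wholly from Des (log2 fold change -1.2 ± 0.50, adjusted p = 0.263) and Acta1 (log2 fold change -1.41 ± 0.42, adjusted p = 0.113), with Myf5 and Mymk at 0 reads in both groups. Epithelial markers summed to 15.0 to 23.4 TPM untreated and 3.59 to 6.23 treated, most of it from the keratin gene Krt19, which fell from 6.39, 8.75 and 15.5 to 1.86, 1.67 and 1.33 CPM (log2 fold change -2.65 ± 0.44, adjusted p = 0.0101), while Krt14 had no reads. The epithelial factor gene Trp63 rose from 0 to 53 reads (adjusted p = 0.0439, or 0.118 with the mouse as a block). Neural and glial markers summed to 48.9 to 63.6 and 74.7 to 112 TPM, adipocyte markers to 5.47 to 14.4 and 8.67 to 10.6 TPM, and chondrocyte markers to 88.5 to 106 and 73.2 to 133 TPM, with none called by edgeR. Of the lists without a call, the endothelial one held 3 genes with an unadjusted p under 0.05 of 7 tested, that of skeletal muscle 2 of 3 and that of chondrocytes 2 of 5 (0 in the others). Among all 15034 genes tested there were 2297. DESeq2 called 2 endothelial genes and 1 of skeletal muscle. The part of these cell types in the results was not tested. Not called with 1 library left out were Krt19 without treated mouse 6 (adjusted p up to 0.069), and Trp63 in each of the 6 fits (adjusted p up to 0.17).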

How the data were processed

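The deposited files held expected counts and TPM per gene for each library. Per the labels, total RNA (Trizol, stranded TruSeq kit) was processed by the authors with FastQC 0.12.1, Trimmomatic, STAR 2.7.11b on GRCm39 and RSEM 1.3.1. Whether the counting used strand is not given in the sources used here, and all libraries were quantified separately. Expected counts, which RSEM as run by the authors gives as estimates, were rounded to whole numbers. The TPM deposited by the authors were used to compare levels between genes, and for the levels of called genes and markers given in TPM for each group. They were not scaled by the TMM factors, and no test was run on them. Groups came from the labels, which call the untreated senescent cells by a slightly different treatment code from the treated ones, read here as the same agent.

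Genes passing filterByExpr (minimum count 10, minimum total 15) were tested with the edgeR 4.0.16 quasi-likelihood test in R 4.3.3 with TMM factors, in 1 fit of the 4 groups with 3 mice each. The 2 libraries of non-senescent mouse 5 were summed. Every adjusted p is from this test unless another fit is named, with the Benjamini-Hochberg adjustment over all genes tested. The study used DESeq2 with the same limits, which is an alternative here (DESeq2 1.42.0), and the scripts were tested on simulated data. Other alternatives changed the factors, the filter, the samples in the fit, the pairing by mouse and the libraries, or added offsets per gene and library for the number of listed transcripts and gene length. CPM are on the TMM-scaled totals. Same-numbered cultures come from the same mouse by the labels, but their deviations from the group means did not consistently run together. Over the 3 pairs of untreated and treated cultures the correlation was -0.204 to 0.208. Over the 18 same-mouse pairs of all groups it was -0.204 to 0.425, with a median of -0.00625. No libraries of a group were alike within counting noise, with chi-square values per gene between 33.9 and 262.

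Named are the 8 called genes with the largest rise and fall (same direction in each mouse, and 1 CPM or more on average in the group where it is higher), the 6 in each direction with the highest TPM, up to 3 called members of each list and direction by adjusted p, and genes the study named. Other genes are named to complete a list or chosen after their values were seen. The gene lists and members were chosen with earlier results of these data known. A few results are not reported here. Promoters are the 250 bases before the start of the canonical transcript in GRCm39 (GENCODE vM39).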

Additional observations from a re-analysis of the deposited data

How the results depend on the processing

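Of the 246 genes, DESeq2 called 242 among 605 in all and the fit without a filter gave 580, while the fit of only the 2 groups gave 101, and without 1 library the count was 46 to 220. RLE factors gave 247, the stricter filter of 10 counts in every sample 265, control libraries kept separate 205 and the adjusted p alone 286. The share of higher genes was 45.9% in the main result, 54.4% with DESeq2 and 56.6% without a filter. With the mouse as replicate block 207 genes were called (345 with the offsets as well), 186 of them among the 246. The deviations of same-mouse cultures correlated at -0.204 to 0.425 over all groups. Of 84 called genes among the named ones, DESeq2 kept 84, RLE factors 82, the fit without a filter 84, separate control libraries 68, the replicate block 65, the offsets 76 and the fit of 2 groups 42, and 24 to 61 were kept without 1 library. None of these 84 genes reversed its direction under any of these settings, and named genes without a call were not checked for this.

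Between 300 and 100 µg/mL the single call became 2 without a filter and 0 with 10 counts in every sample, with only the 2 groups, with the replicate block for the mouse and in each fit without 1 library (0 to 0), and stayed 1 with DESeq2 and RLE factors. The cause of these differences was not tested. With 3 cultures a side, 1 library can decide a call near the limit, and an absent call does not show that a gene kept its level.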

Other observations

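The genes below were chosen after their values were seen. The smallest adjusted p of all genes was that of Hmga1, a chromatin architectural protein of embryonic and transformed cells, at 288, 332 and 344 CPM in untreated mice 4, 5 and 6 and 32.6, 35.9 and 30.7 in treated ones (log2 fold change -3.28 ± 0.23, adjusted p = 2.88e-05). Its relative Hmga2 read 223, 179 and 178 CPM untreated and 89.1, 51.7 and 34.9 treated (log2 fold change -1.72 ± 0.30, adjusted p = 0.0116). Nes, nestin, an intermediate filament gene of progenitor cells, read 607, 829 and 1033 CPM untreated and 158, 163 and 141 treated (log2 fold change -2.42 ± 0.26, adjusted p = 0.000952). Noct, a circadian deadenylase-family gene, fell from 85.8, 119.9 and 116 to 33.5, 27.6 and 30.4 CPM (log2 fold change -1.81 ± 0.19, adjusted p = 0.000865), and the small MAF factor gene Maff from 93.0, 104 and 96.8 to 43.0, 34.5 and 30.4 (log2 fold change -1.44 ± 0.21, adjusted p = 0.00463). The chemokine receptor gene Cxcr6 fell from 27.5, 20.7 and 11.2 to 1.40, 1.78 and 1.08 CPM (log2 fold change -3.80 ± 0.51, adjusted p = 0.00355). The call of Hmga1, Nes, Noct, Maff and Cxcr6 held in all 6 fits with 1 library left out.

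Other genes that rose were not part of a list. Kcnma1, the large-conductance potassium channel, read 1.73, 2.80 and 0.612 CPM untreated and 17.5, 7.75 and 11.99 treated (log2 fold change 2.86 ± 0.59, adjusted p = 0.0266). Slc8a1, the sodium-calcium exchanger, read 11.9, 10.9 and 4.38 CPM untreated and 38.7, 36.1 and 38.2 treated (log2 fold change 2.05 ± 0.33, adjusted p = 0.00874), and Gucy1a1, a subunit of the nitric oxide receptor guanylate cyclase, 1.41, 2.16 and 0.917 CPM untreated and 10.6, 9.50 and 19.4 treated (log2 fold change 3.14 ± 0.65, adjusted p = 0.0266). Map2, a microtubule protein best known from neurons, rose from 2.17, 4.27 and 0.578 to 24.3, 20.9 and 20.1 CPM (log2 fold change 3.23 ± 0.54, adjusted p = 0.0102). Csgalnact1 (log2 fold change 2.03 ± 0.36, adjusted p = 0.0117) and Chst15 (log2 fold change 1.36 ± 0.30, adjusted p = 0.0332), which code for enzymes of chondroitin sulfate synthesis, also rose. No single library decided the call of Slc8a1 and Map2. Removing 1 library ended the call of Kcnma1 without treated mouse 4 or 6 or untreated mouse 4 (adjusted p up to 0.1), Gucy1a1 except without treated mouse 4 or untreated mouse 5 (adjusted p up to 0.15), and Csgalnact1 without treated mouse 6 (adjusted p up to 0.06). Leaving out 1 library ended the call of Chst15 except without untreated mouse 5 (adjusted p up to 0.19). The offsets ended the call of Chst15 (adjusted p = 0.0819). Blocking by mouse put the adjusted p above the limit for Kcnma1 (0.0659), Gucy1a1 (0.0651) and Chst15 (0.0555).

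Beside H19, Mest and Cdkn1c, the values of some other imprinted genes, none of them called, were as follows. Igf2, the neighbor of H19 and a member of the IGF list, read 58.9, 43.2 and 17.8 CPM untreated and 164, 61.0 and 131 treated (log2 fold change 1.57 ± 0.52, adjusted p = 0.154), and Peg3 47.9, 63.8 and 15.9 CPM untreated and 166, 129.6 and 179 treated (log2 fold change 1.90 ± 0.45, adjusted p = 0.052), the latter being called with the offsets (adjusted p = 0.00803). Plagl1 had a log2 fold change of 1.28 (adjusted p = 0.126), Grb10 of 0.74 (0.136), Dlk1 of -1.40 (0.061), Peg10 of -1.09 (0.126), Nnat of 0.18 (0.879) and Ndn of 0.04 (0.991).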
